A study of Gossypium hirsutum with 30 samples.

Results

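The comparison described here is the change of the genotype effect between fibre initiation and fibre elongation: the difference between fl mutant and WT ovules at 10 dpa (days post anthesis) minus the same difference at 0 dpa, for every probe set of the Affymetrix cotton array. It rests on the 12 arrays labelled 0 and 10 dpa, out of 30 arrays in the series, and on 24029 of 24132 probe sets, all of them except the Affymetrix control probe sets. WT was Gossypium hirsutum cv. MCU5, from which fibre-bearing ovules were taken, and the fl mutant was its near-isogenic fuzzless-lintless line, a single spontaneous mutant whose ovules carry neither lint nor fuzz. Both were field grown with normal agronomic practices, and no experimental treatment is named for either. The 4 groups (WT and fl mutant, each at 0 and 10 dpa) held 3 biological replicates each. Weather and hour of sampling were not given in the sources used here, so the stage and the day of sampling cannot be told apart.

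A cotton fibre is a single cell of the outer ovule epidermis. Fibre cells are set apart around anthesis under the control of MYB and homeodomain factors, and then elongate for weeks, which takes wall loosening, a new primary wall, very long chain lipids for membranes and cuticle, and high turgor. In the fl mutant these cells do not elongate. In whole ovules, fewer cells of a type and less RNA per cell cannot be told apart.

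The deposited values are log2 intensities after RMA, shifted so that the 6 arrays of a stage have a median of 0 for each probe set. A value is therefore a deviation from the middle of its own stage, and neither a level nor a change from 0 to 10 dpa within a genotype can be read from it. The shift cancels in the stage difference, as the double difference is called here. A positive stage difference means that the fl mutant stood higher against WT at 10 dpa than at 0 dpa, and a negative one that it stood lower. Transcripts carry the names of their Arabidopsis matches in the study's own tables, which can be loose, and which name 2367 probe sets. These tables list mainly transcripts that differed in these arrays.

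The oligos that the study designed for quantitative PCR are the sequences at hand for transcripts on which the account turns. They are shown 5′ to 3′ in lower case for the small heat shock protein HSP18.2, the heat shock factor HSFA2, the acyltransferase ACY/DCR, the fasciclin-like arabinogalactan protein AGP2/FLA12, and the epidermal MYB factor GhMYB25/MYB16. The genes' positions in a cotton genome were not looked up.
HSP18.2 forward: agctcatgtcttcaaagccgacct
HSP18.2 reverse: ttctggcaacctgaacctcctcat
HSFA2 forward: cagaaacaggtgtagaagacgtgc
HSFA2 reverse: tgggcaagtgactcattcctcttc
ACY/DCR forward: ccacccgaaatccacttcgtaaac
ACY/DCR reverse: tcgatgaacgtaacaggcatggga
AGP2/FLA12 forward: tctccagccttaaatcgggcacat
AGP2/FLA12 reverse: tcaccagcttgggttctcaaagga
GhMYB25/MYB16 forward: agtcacatggctcaatgggagagt
GhMYB25/MYB16 reverse: tgaataacccgcagacgacacctt

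Arrays of a group correlated with each other at r of 0.76 to 0.85 over the tested probe sets at 0 dpa and at 0.89 to 0.94 at 10 dpa, and no array was left out. Since values are centred per stage, r depends on the size of the genotype difference as well as on replicate scatter. It does not compare replicate agreement between the stages. The SD of an array's deviations from its group mean was 0.08 to 0.12 at 0 dpa and 0.11 to 0.15 at 10 dpa. At 0 dpa 20 probe sets of fibre and epidermis transcripts had a mean value of 1.08 to 1.14 in the WT arrays. It was -1.24 to -1.13 in the fl mutant arrays, and 1.68 to 1.78 against -1.83 to -1.70 at 10 dpa. These transcripts were named from tables that list mainly transcripts that differed in these arrays. The gap is therefore a description and does not check the fibre label. The bacterial controls added to the samples also moved. The 27 poly-A control probe sets for lys, phe and thr, from RNA added before labelling, had a median genotype difference of 0.16 at 0 dpa and -0.76 at 10 dpa, a stage difference of -0.88. The 21 hybridisation control probe sets for bioB, bioC and bioD had a median genotype difference of 0.70 at 0 dpa and -0.51 at 10 dpa, and a median stage difference of -1.16. All of these 48 probe sets lay below 0 in that contrast, whereas the median over the 24029 tested probe sets was -0.06. The poly-A control dap (9 probe sets) and the hybridisation control cre (6 probe sets) moved less, with median stage differences of -0.30 and -0.25. Why the controls moved was not tested, and they are not read here as a measure of ovule RNA.

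Across all probe sets, 3188 had a stage difference past the threshold, 13.3% of those tested: 1625 in which the fl mutant moved up against WT (6.76%) and 1563 in which it moved down (6.50%). A call required an adjusted p of at most 0.01 (limma with Benjamini-Hochberg adjustment over all probe sets) and a difference of at least 3-fold. The genotypes were less apart at 0 dpa, where 371 probe sets were called (1.54%; 37 higher, 0.154%, and 334 lower, 1.39%, in the fl mutant), than at 10 dpa, where 2754 were (11.5%; 1180 higher, 4.91%, and 1574 lower, 6.55%). The even split of the stage difference, 51.0% upward, depended on the scale: with each array centred on its poly-A controls 87.3% of calls were upward, and with the hybridisation controls 90.8%, as these settings moved the median of all probe sets to 0.83 and 1.00. Of the calls above, 2314 and 2212 were shared with these settings, which were added after the data had been seen. Values below are on the deposited scale, and counts on the control scales are given beside most of the lists described.

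**Figure D1:**
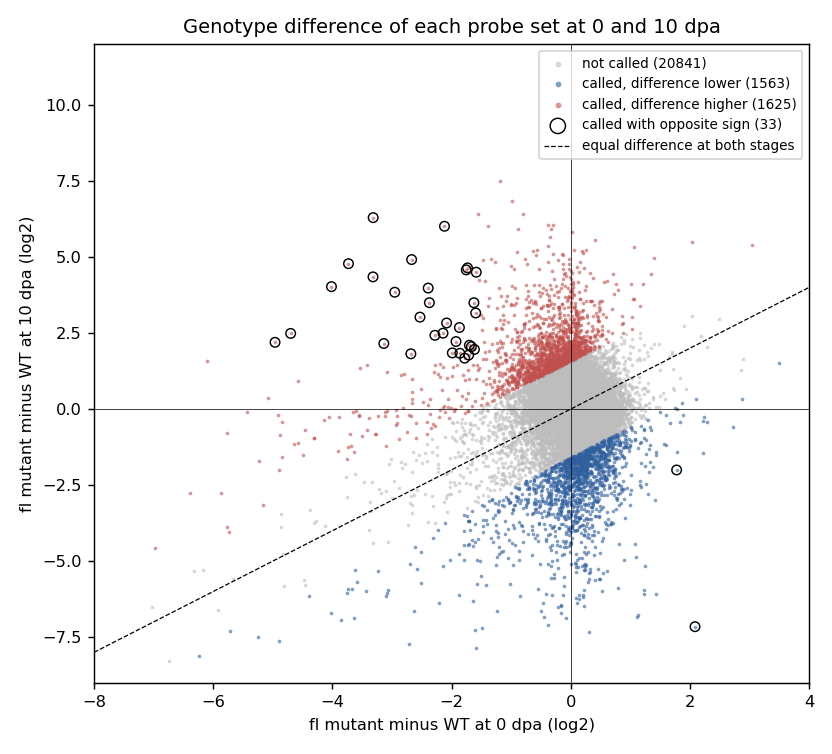
Each point is 1 of 24029 probe sets, with the fl mutant minus WT difference at 0 dpa on the x axis and at 10 dpa on the y axis (log2, means of 3 arrays per group); colours give the stage difference calls, circles the 33 probe sets called in opposite directions at the stages, and the dashed line equal differences. The cloud is wider at 10 dpa than at 0 dpa, and the 1625 upward and 1563 downward calls lie above and below the dashed line.

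Most calls came from transcripts that were called at 10 dpa and not at 0 dpa. Of the 1563 downward calls 1225 were lower in the fl mutant at 10 dpa only (78.4%), and of the 1625 upward calls 985 were higher at 10 dpa only (60.6%). Another 105 upward calls were lower at 0 dpa only, and 31 were lower at 0 dpa and higher at 10 dpa. Among the 148 probe sets lower at both stages, 52 were further down at 10 dpa, 9 were less far down, and 87 had no called stage difference. Names are uneven over these classes, since 953 of the 985 carry one but only 471 of the 1225. Of the 2367 named probe sets 70.9% were called (47.5% upward and 23.4% downward). At 0 dpa 15.6% of them differed by genotype (14.1% being lower and 1.56% higher in the fl mutant), against 77.4% at 10 dpa (29.6% lower, 47.7% higher). Over the 1456 probe sets in any list, which match 897 Arabidopsis loci, 32.6% were called upward and 33.2% downward. The counts in the lists below stand beside these shares and not beside 13.3%.

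The transcription factors known for setting fibre fate did not move as a group. GhMYB25/MYB16, a MIXTA-type MYB factor of epidermal cells, read 2.64, 2.46 and 2.61 in WT and -2.77, -2.56 and -2.46 in the fl mutant at 0 dpa. At 10 dpa it read 1.87, 1.40 and 1.27 in WT and -1.27, -1.81 and -1.88 in the fl mutant. The genotypes did not overlap at either stage, and the gap was narrower at 10 dpa: the log2 difference was -5.17 and then -3.16, a stage difference of 2.01 ± 0.24 (SE, n = 3 arrays per group; adjusted p = 1.09e-05). HOX3/HDG11, a homeodomain factor of fibre elongation, went the other way. Its difference was -0.53 at 0 dpa and -3.76 at 10 dpa, a stage difference of -3.23 ± 0.18 (adjusted p = 7.36e-09). Of both probe sets matching MYB106, a relative of MYB16, 1 was lower at both stages (-3.76 and -2.23) with a stage difference of 1.53 that missed the fold threshold but passed it when any of 4 single arrays was left out (1.59 to 1.80), and the other was called at neither (0.25 and -0.31).

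Transcripts for wall loosening were called in both directions. The upward and downward shares were 32% and 32% for xyloglucan enzymes, 26.3% and 26.3% for expansins and 20.5% and 25.6% for pectin enzymes. Over the probe sets in any list they were 32.6% and 33.2%. Of 25 xyloglucan enzyme probe sets 8 were called upward and 8 downward (median -1.08), of 19 expansin probe sets 5 and 5 (median -0.75), and of 39 probe sets for pectin enzymes 8 and 10 (median -0.28), the last turning to 11 and 7 with arrays centred on the poly-A controls and 12 and 6 with the hybridisation controls. On both control scales the xyloglucan enzymes counted 8 and 5 and the expansins 5 and 3. EXPA1, the alpha-expansin of elongating fibres, read 0.24, 0.34 and 0.21 in WT and -0.25, -0.21 and -0.39 in the fl mutant at 0 dpa, against 2.91, 2.98 and 2.62 and -2.62, -3.31 and -3.32 at 10 dpa. The groups were distinct at both stages, but only at 10 dpa was the transcript called, with a stage difference of -5.37 ± 0.23 (adjusted p = 5.10e-10). Transcripts encoding EXPA16 and EXPA4 ran the opposite way, with stage differences of 3.62 and 4.15. XTH7, a xyloglucan endotransglucosylase, went from 1.23 at 0 dpa to -5.94 at 10 dpa, a stage difference of -7.17 ± 0.25 (adjusted p = 8.15e-11), and both other probe sets of its locus were lowered too (-5.73 and -5.23). XTH5 and the beta-xylosidase BXL1 moved up by 3.95 and 4.63.

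TCH4, the touch-induced xyloglucan enzyme, belonged to the transcripts that were far lower from the start. Its qRT-PCR probe set read 3.04, 3.20 and 3.16 in WT and -3.04, -3.81 and -3.98 in the fl mutant at 0 dpa, and 4.03, 4.02 and 4.10 against -4.02, -4.42 and -4.24 at 10 dpa. The difference was -6.74 and then -8.27, and the stage difference of -1.53 (95% confidence interval -2.11 to -0.96; adjusted p = 0.000244) fell short of 3-fold. Leaving out fl mutant replicate 2 or 3 at 0 dpa, or fl mutant replicate 1 at 10 dpa, took it past the threshold (-1.63, -1.72 and -1.64). The other 7 probe sets of this locus ranged from -3.16 to 2.72, with 1 called upward and 3 downward. XTH23 was lower at both stages and further down at 10 dpa (-3.85 and -6.92, stage difference -3.07).

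Among structural wall proteins, AGP2/FLA12 and all 3 proline-rich protein probe sets were called lower at 10 dpa only, while the arabinogalactan proteins as a list were mixed. AGP2/FLA12, a fasciclin-like arabinogalactan protein, read 0.07, 0.28 and -0.06 in WT and -0.12, -0.12 and 0.06 in the fl mutant at 0 dpa, where the arrays of the genotypes overlapped. At 10 dpa they read 3.32, 3.28 and 3.25 in WT and -3.25, -3.38 and -3.66 in the fl mutant, without overlap. The stage difference was -6.56 ± 0.16 (adjusted p = 5.19e-12). All 3 probe sets for proline-rich proteins of fibres moved down, PRP3 by -6.37 and -6.32 and PRP5 by -5.92. Together they match 1 Arabidopsis locus. Of 15 arabinogalactan protein probe sets 6 were called downward and 1 upward (median -0.84; 3 downward on the control scales), with FLA10 at -3.07. FLA6/FLA11, a relative of AGP2/FLA12 named by the study, was called at neither stage, with a stage difference of 0.23 (95% confidence interval -0.23 to 0.69).

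Cellulose synthase transcripts showed no common direction, with 2 upward and 2 downward among 9 probe sets, and 2 and 0 on the control scales. These shares of 22.2% each were below the 32.6% and 33.2% over the probe sets in any list. CESA8, a subunit for secondary walls, was at 2.47 and CSLD2, of tip-growing cells, at -2.17, the latter losing its call with arrays centred on either set of controls (-1.29 and -1.11). CESA7, also a secondary wall subunit, had a stage difference of -0.29 (95% confidence interval -0.84 to 0.26). Enzymes making sugar nucleotides for the wall were mostly lower: 9 of 15 were called downward and 2 upward (median -1.69; 4 and 3 downward on the poly-A and hybridisation scales), with the UDP-glucose pyrophosphorylase UGP2 at -3.47 and the UDP-glucose 6-dehydrogenase at -2.66, but the UDP-glucose epimerase UGE1 at 4.01. GAE1, an epimerase for pectin precursors, was lower by a similar amount at both stages (-2.24 and -1.81). A beta-1,3-glucanase transcript, whose product cleaves callose, went from 0.13 to -3.88. Another probe set with the same cluster number was not called (0.26 and 0.01, stage difference -0.26). Sucrose synthase SUS4 went from -0.77 to -2.46. The SUS4 stage difference of -1.69 was not past the threshold without fl mutant replicate 3 at 10 dpa (-1.55), nor on the control scales (-0.80 and -0.63).

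**Figure D2:**
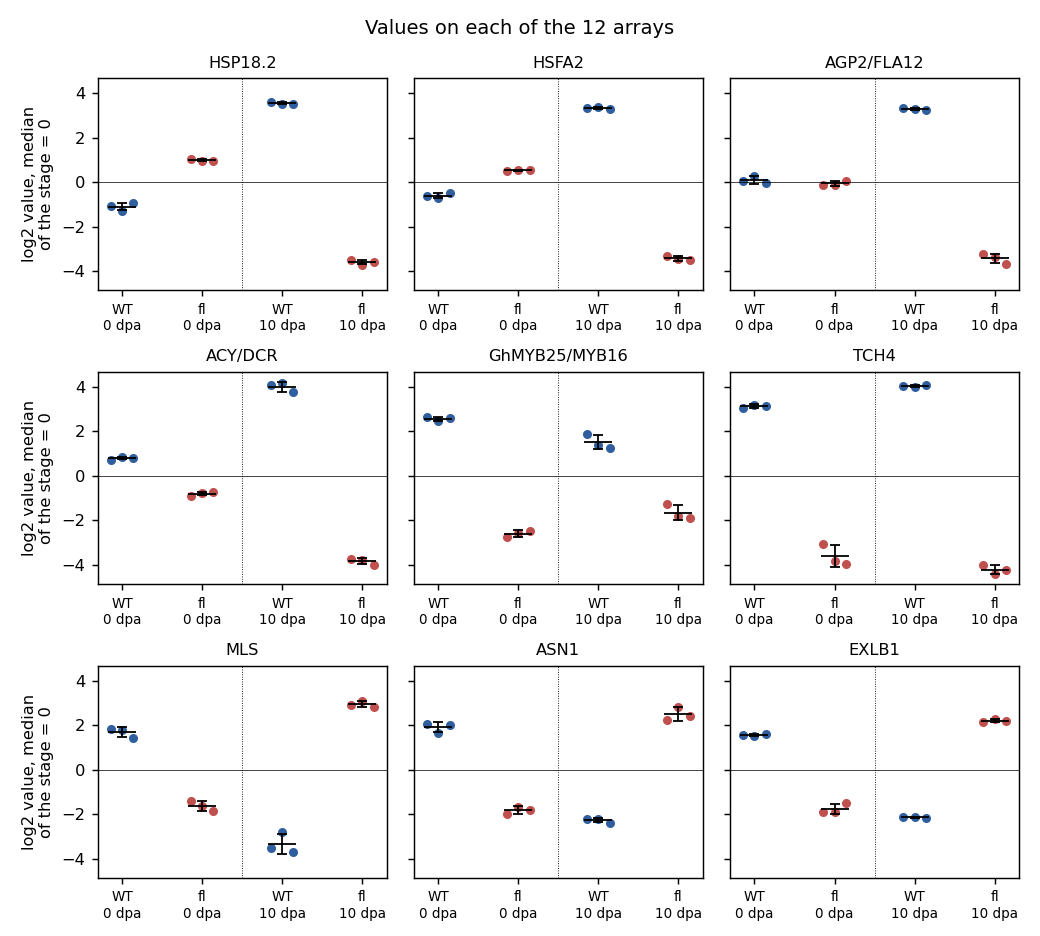
Values on the 12 arrays (log2, median of the stage = 0) for 9 transcripts; points are single arrays, bars the mean ± SD of 3 arrays, and the dotted line separates the stages, between which levels cannot be compared. HSP18.2, MLS, ASN1 and EXLB1 changed sign between 0 and 10 dpa, AGP2/FLA12 was level at 0 dpa and lower at 10 dpa, and TCH4 was lower at both.

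Calls among cytoskeleton transcripts were almost all downward. Of 34 probe sets for actin- and microtubule-associated transcripts 25 were called downward and 1 upward (73.5% and 2.94%, median -2.34). Of the 25, 24 were lower at 10 dpa only, beside 471 of the 553 downward named probe sets. The downward count was 15 and 13 with arrays centred on the poly-A and the hybridisation controls. Profilin PRF5, which binds actin monomers, read 0.06, -0.07 and -0.10 in WT and 0.17, 0.03 and -0.03 in the fl mutant at 0 dpa, and 2.38, 2.43 and 2.33 against -2.33, -2.69 and -3.08 at 10 dpa. The groups overlapped at 0 dpa and were wide apart at 10 dpa, a stage difference of -5.18 ± 0.20 (adjusted p = 2.51e-10). Beta-tubulin BTub1 had a stage difference of -4.16 and the actin-depolymerising factor ADF6 one of -3.75. The single upward member was another beta-tubulin, BTub9, at 2.11, which shares its Arabidopsis match with BTub1.

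Very long chain fatty acids are built by the elongase complex, and 15 of its 22 probe sets were called downward and 1 upward (median -2.34; 11 and 8 downward on the control scales). The GNS1/SUR4 elongase read -0.12, -0.14 and -0.07 in WT and 0.07, 0.44 and 0.07 in the fl mutant at 0 dpa, and 3.66, 3.50 and 3.48 against -3.75, -3.48 and -4.09 at 10 dpa. WT was slightly the lower genotype at 0 dpa and far the higher at 10 dpa, with a stage difference of -7.62 ± 0.20 (adjusted p = 9.65e-12). The ketoacyl-CoA synthases KCS11 and KCS19 moved by -4.11 and -3.39, while KCS1, lower at 0 dpa (-1.59) and not called at 10 dpa (0.97), was the upward member at 2.57. ACY/DCR, an acyltransferase of cutin formation, was lower at both stages: its values were 0.74 to 0.84 in WT and -0.89 to -0.74 in the fl mutant at 0 dpa, and 3.76 to 4.19 against -3.99 to -3.76 at 10 dpa. The genotypes did not overlap, and the gap widened from -1.59 to -7.85, a stage difference of -6.26 ± 0.15 (adjusted p = 5.19e-12). The list of phospholipid, desaturase and sphingolipid transcripts counted 7 downward and 3 upward of 14 (median -1.27), and 5 and 3 on both control scales. The fatty acyl reductase CER4 of wax synthesis was at -3.19 and the acyl-CoA-binding protein ACBP4 at -3.13. Of 23 lipid transfer protein probe sets 13 were called downward and 4 upward (median -2.06; 9 and 8 downward on the control scales): LTP1 stood at -2.20, LTPG1 at -3.62 and the AT3G22620 match at -4.91, against 4.89 for the AT3G22600 match. LTP1 lost its call with either set of controls (-1.32 and -1.15).

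Of 23 probe sets for mitochondrial electron transport 16 were called downward and 3 upward (median -2.19). All 16 were lower at 10 dpa only, beside 471 of the 553 downward named probe sets. With arrays centred on the controls, the downward count was 10 (poly-A) and 8 (hybridisation) and the upward count 5 on both. The alternative NADH dehydrogenases NDA1 and NDB2 were at -4.46 and -3.54 and the complex I subunit NAD4L at -3.89, while the alternative oxidase AOX2 was at 2.70. Of 15 probe sets for raffinose and trehalose synthesis 11 were called downward and 1 upward (median -2.88). On the poly-A and hybridisation scales 9 and 8 were downward, with 2 upward on both. Galactinol synthase GolS1, the first enzyme of the raffinose route, read -0.19, -0.22 and -0.17 in WT and 0.17, 0.21 and 0.52 in the fl mutant at 0 dpa, and 3.02, 3.06 and 2.57 against -2.85, -2.57 and -2.66 at 10 dpa. The fl mutant was on the higher side at 0 dpa without a call and lower at 10 dpa, with a stage difference of -6.06 ± 0.19 (adjusted p = 3.53e-11). GolS2 followed at -5.43 and the trehalose phosphatase TPPA at -4.40. A cytosolic aldolase was at -6.68 and plastocyanin PETE2 at -6.01, the latter in a list of photosynthesis and carbon fixation in which 11 of 34 were called downward and 2 upward (7 and 5 on the control scales). Aquaporins and solute transporters went both ways, 18 upward and 6 downward of 39 probe sets (27 and 2 on the control scales). A gamma-TIP aquaporin stood at -5.31, another probe set with the same match at 3.03, and the amino acid permease AAP3 at 3.03.

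Heat shock transcripts moved mostly downward. Of 58 probe sets in the study's heat shock list 40 were called downward and 6 upward (69.0% and 10.3%, median -2.67). Of the 40, 39 were lower at 10 dpa only, beside 471 of the 553 downward named probe sets. With arrays centred on the controls the counts were 30 downward and 9 upward (poly-A) and 29 and 9 (hybridisation). HSP18.2, a small chaperone, read -1.07, -1.28 and -0.95 in WT and 1.05, 0.95 and 0.95 in the fl mutant at 0 dpa. At 10 dpa it read 3.59, 3.52 and 3.53 in WT and -3.52, -3.71 and -3.58 in the fl mutant. The genotypes thus changed places without overlap, from a difference of 2.08 to one of -7.16, and the stage difference of -9.24 ± 0.12 (adjusted p = 1.51e-13) was the largest downward value of all probe sets tested. HSFA2, the factor that sustains the heat response, followed the same course short of a call at 0 dpa. It read -0.64, -0.70 and -0.50 in WT against 0.50, 0.54 and 0.53 in the fl mutant at 0 dpa, and 3.33, 3.37 and 3.30 against -3.30, -3.45 and -3.51 at 10 dpa. Its stage difference was -7.89 ± 0.11 (adjusted p = 1.51e-13). HSP90.1 and HSC70-1, general chaperones, were at -6.51 and -6.42. Of 7 heat shock factor probe sets 5 were called downward and 0 upward, HSFA3 (-2.95) and HSFB2B (-2.86) among them. On both control scales 4 were downward and 0 upward. Of the 6 upward members 4 were DnaJ-type co-chaperones, among them the match to AT2G17880 at 4.14, and the other two, matching a metal transport protein and the glycosyltransferase IRX14, are no chaperones.

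**Figure D3:**
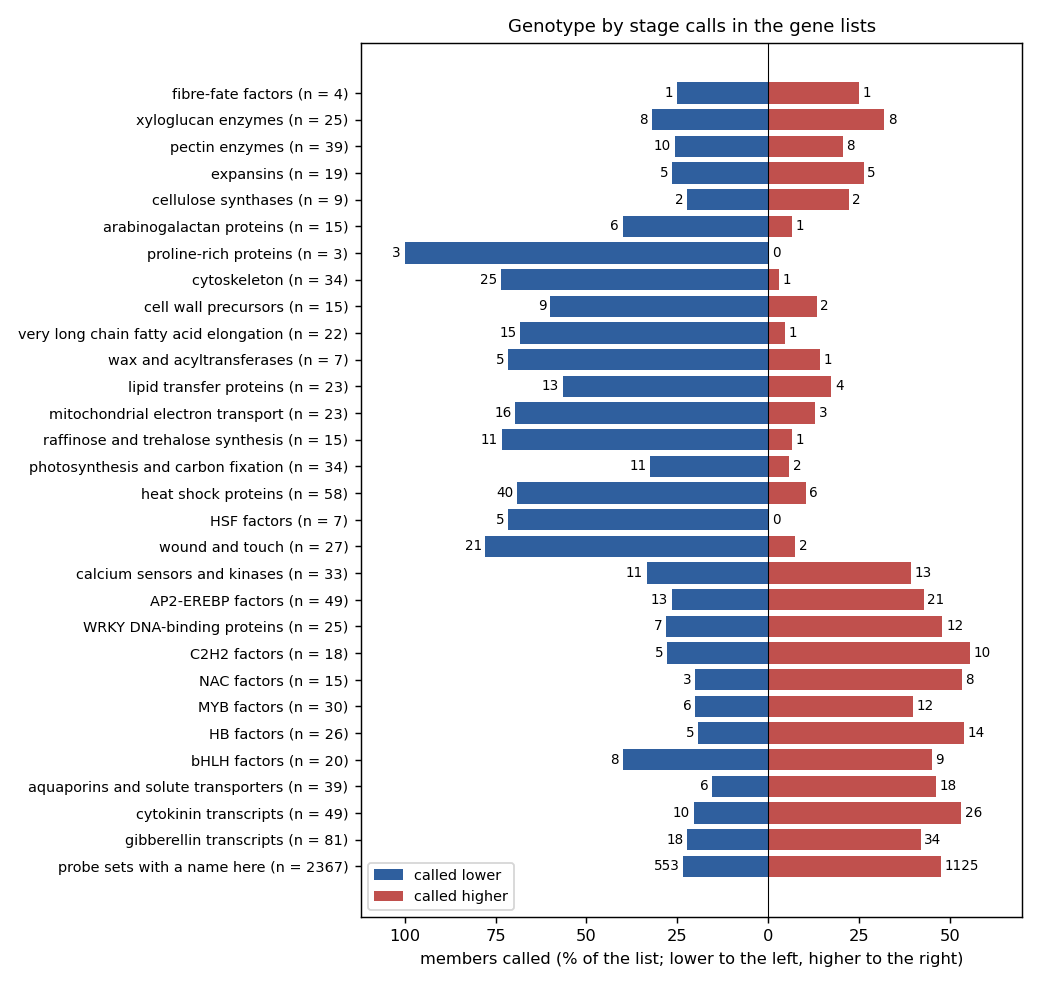
Share of each gene list called downward (left, blue) and upward (right, red) in the stage difference, in percent of the list, with the number of probe sets called beside each bar; the last row gives all 2367 named probe sets. Heat shock proteins (40 of 58 lower), cytoskeleton (25 of 34) and wound and touch transcripts (21 of 27) lean downward. The shares of HB factors (14 of 26 higher) and cytokinin transcripts (26 of 49) lie near those of all named probe sets. Both lie above the 32.6% upward over the 1456 probe sets in any list.

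Transcription factor families other than the heat shock factors were called in both directions, with 40% to 55.6% of a family upward and 19.2% to 40% downward. The shares were 47.5% and 23.4% over all named probe sets, and 32.6% and 33.2% over the probe sets in any list. The upward and downward counts were 21 and 13 of 49 for AP2-EREBP, 12 and 7 of 25 for WRKY DNA-binding proteins (19 and 17 of 54 in the study's wider WRKY list, which also holds kinases), 10 and 5 of 18 for C2H2, 8 and 3 of 15 for NAC, 12 and 6 of 30 for MYB, 14 and 5 of 26 for homeobox and 9 and 8 of 20 for bHLH factors. Centred on the poly-A controls they counted 29 and 12, 14 and 6, 12 and 2, 9 and 1, 15 and 4, 17 and 4, and 10 and 3 in the same order. Of the upward AP2-EREBP members 8 were lower at 0 dpa only and 8 higher at 10 dpa only. Among the 1125 upward named probe sets these classes held 105 and 953. Of the upward homeobox members 13 of 14 were higher at 10 dpa only, which is near the share over all named probe sets. ERF5, an ethylene-responsive AP2 factor, read 2.49, 2.35 and 2.39 in WT and -2.56, -2.74 and -2.35 in the fl mutant at 0 dpa, and -1.22, -1.03 and -1.06 against 1.12, 1.11 and 1.03 at 10 dpa. The order of the genotypes turned, with a stage difference of 7.16 ± 0.13 (adjusted p = 1.11e-12). The AP2 factor matching AT5G51190 went from -6.11 to 1.58, a stage difference of 7.69 ± 0.39. In the opposite direction ERF110 went from -0.38 to -7.10 and DREB19 from 0.52 to -4.35.

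ZAT10 and ZAT6, zinc finger repressors induced by stress, were transcripts with a gap at 0 dpa that was small at 10 dpa. ZAT10 read 2.42, 2.40 and 2.32 in WT and -2.58, -2.32 and -2.51 in the fl mutant at 0 dpa, and 0.16, 0.23 and 0.09 against -0.09, -0.39 and -0.32 at 10 dpa. The groups stayed apart, but the difference shrank from -4.85 to -0.43 (stage difference 4.43 ± 0.13, adjusted p = 2.13e-11), and that of ZAT6 from -4.87 to -0.86. WRKY33, of pathogen responses, went from -3.09 to 1.23 and WRKY75, known from senescence and phosphate starvation, from -1.73 to 4.64. WRKY15 moved by 4.11, whereas WRKY54, WRKY22 and WRKY48 moved by -3.50, -3.47 and -3.13. Among the others the NAC factors NAC047 and NAC074 were at 7.19 and 5.77 and NAC062 at -3.56. The guard cell factor MYB60 was at -5.92 and the stress factor MYB108 at 3.84. The homeobox factors HB40 and KNAT7 were at 5.87 and 5.20, and the class II homeodomain-zipper factors HAT3 and ATHB2 at -5.42 and -3.80. The bHLH factor TMO5, of vascular patterning, had the largest value of its family at 7.97 ± 0.20.

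Calcium sensor transcripts were called in both directions, and most wound and touch transcripts downward. Of 33 calcium sensor and kinase probe sets 13 were called upward and 11 downward (median -0.04), and 15 and 5 on the control scales. These shares of 39.4% and 33.3% stand beside 32.6% and 33.2% over the probe sets in any list. The EF-hand protein matching AT4G27280 read 2.83, 2.80 and 2.80 in WT and -3.15, -2.95 and -2.80 in the fl mutant at 0 dpa, and 0.47, 0.32 and 0.48 against -0.38, -0.35 and -0.32 at 10 dpa. Its genotype gap closed from -5.78 to -0.77, with a stage difference of 5.00 ± 0.12 (adjusted p = 5.79e-12). The match to AT5G39670 closed in the same way, from -4.14 to -0.36. Calmodulin CAM1 was level at 0 dpa (0.23) and lower at 10 dpa (-5.28), and the calcium-dependent kinase CPK6 moved by -3.65. CML24, a touch-induced calmodulin-like protein also called TCH2, was lower at both stages and further down at 10 dpa (-3.76 and -6.06, stage difference -2.30); centred on the controls it lost its call (-1.41 and -1.24). A plasma membrane Ca2+-ATPase was lower at both stages, less so at 10 dpa (-5.73 and -4.04, stage difference 1.68), and was not past the threshold without fl mutant replicate 2 at 0 dpa (1.57). Of 27 wound and touch probe sets, which match 9 Arabidopsis loci, 21 were called downward and 2 upward (77.8% and 7.41%, median -2.11). With arrays centred on the poly-A and hybridisation controls 10 and 8 were downward. The lipoxygenases LOX4 and LOX3 of jasmonate synthesis were at -3.58 and -3.52 and EXL5 at -3.98, while LOX1, lower at 0 dpa (-2.11) and near equal at 10 dpa (-0.09), was at 2.02.

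Hormone-related lists overlap each other and the families above. Between 31.4% (jasmonic acid) and 53.1% (cytokinin) of their members were called upward. The share was 47.5% over all named probe sets and 32.6% over the probe sets in any list. Between 20.4% (cytokinin) and 33.4% (abscisic acid) were called downward, beside 23.4% and 33.2%. Counts upward and downward were 98 and 96 of 287 for abscisic acid, 70 and 64 of 212 for auxin, 60 and 49 of 162 for ethylene, 46 and 35 of 131 for brassinosteroid, 46 and 34 of 122 for salicylic acid and 27 and 24 of 86 for jasmonic acid. Gibberellin transcripts counted 34 and 18 of 81 (median 1.27) and cytokinin transcripts 26 and 10 of 49 (median 1.61). On the poly-A scale the counts were 127 and 50 for abscisic acid, 91 and 38 for auxin, 71 and 29 for ethylene, 57 and 19 for brassinosteroid, 63 and 19 for salicylic acid, 35 and 11 for jasmonic acid, 47 and 9 for gibberellin and 30 and 2 for cytokinin. GA3OX1, which makes active gibberellin, read 0.70, 0.86 and 0.68 in WT and -0.68, -0.78 and -0.71 in the fl mutant at 0 dpa, and -2.61, -2.37 and -2.60 against 2.37, 2.38 and 2.37 at 10 dpa. The genotypes changed sides, with a stage difference of 6.37 ± 0.11 (adjusted p = 9.04e-13), though the 0 dpa difference of -1.47 was short of 3-fold. The cytokinin response regulator ARR9 was at 3.40 and the gibberellin-induced GASA1 at 5.17. XERICO, which affects abscisic acid levels, was at 4.30. IAA4, an auxin-induced repressor, was lower at both stages and further down at 10 dpa (-4.89 and -7.63, stage difference -2.74 ± 0.22). Allene oxide synthase, a step to jasmonate, split by probe set, from -3.66 to 4.72 over 6 probe sets.

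MLS, malate synthase of the glyoxylate cycle, read 1.84, 1.78 and 1.42 in WT and -1.42, -1.64 and -1.84 in the fl mutant at 0 dpa, and -3.51, -2.82 and -3.68 against 2.92, 3.11 and 2.82 at 10 dpa. It was lower at 0 dpa (-3.32) and higher at 10 dpa (6.29), and its stage difference of 9.61 ± 0.28 (adjusted p = 2.08e-11) was the largest upward value. Osmotin 34, a pathogenesis-related protein, read 0.65, 0.67 and 0.42 in WT and -0.79, -0.42 and -0.59 in the fl mutant at 0 dpa, and -4.24, -3.56 and -3.95 against 3.56, 3.58 and 3.56 at 10 dpa. Its stage difference was 8.66 ± 0.21 (adjusted p = 5.17e-12), with no call at 0 dpa. ASN1, asparagine synthetase, known to be induced by darkness and low sugar, read 2.07, 1.66 and 2.01 in WT and -2.00, -1.66 and -1.80 in the fl mutant at 0 dpa, and -2.24, -2.22 and -2.39 against 2.22, 2.83 and 2.43 at 10 dpa. The stage difference was 8.51 ± 0.21 (adjusted p = 7.37e-12), and the other 5 ASN1 probe sets were upward too, at 1.86 to 8.04. Other large upward values were those of a DUF1685 protein (8.13), the AT5G41761 match (7.82), a Kunitz protease inhibitor (7.58), a phospholipase C-like protein (7.39), the glucosyltransferase UGT84A2 (6.26), the peroxidase PA2 (5.19) and a basic chitinase (4.98). The dehydration proteins EM1 and RD20 (-6.37 and -6.27), the epoxide hydrolase SEH (-6.29), the blue light receptor PHOT1 (-6.24) and the germin-like protein GLP1 (-5.71) lay at the downward end.

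In 33 probe sets the genotype difference was called at both stages with opposite sign, 31 from lower to higher and 2 from higher to lower. EXLB1, an expansin-like protein, read 1.58, 1.50 and 1.59 in WT and -1.89, -1.89 and -1.50 in the fl mutant at 0 dpa, and -2.13, -2.13 and -2.17 against 2.13, 2.26 and 2.21 at 10 dpa. It went from -3.32 to 4.34, a stage difference of 7.66 ± 0.14 (adjusted p = 9.04e-13). The other members included NAC047, ERF5, WRKY75, HB40, the glutathione transferase GST30 (stage difference 6.37) and, chosen after their values were seen, the invertase inhibitor C/VIF1 (6.08) and the ethylene-forming oxidase ACO4 (4.91). The downward pair was HSP18.2 and LHY, a transcription factor of the circadian clock. LHY read -0.86, -0.87 and -0.92 in WT and 0.94, 0.86 and 0.88 in the fl mutant at 0 dpa, and 1.07, 1.08 and 0.96 against -0.98, -0.97 and -0.96 at 10 dpa. Replicates agreed closely and the genotypes changed places, from 1.78 to -2.00 (stage difference -3.78 ± 0.09, adjusted p = 4.13e-12). The hour of sampling was not given in the sources used here.

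**Figure D4:**
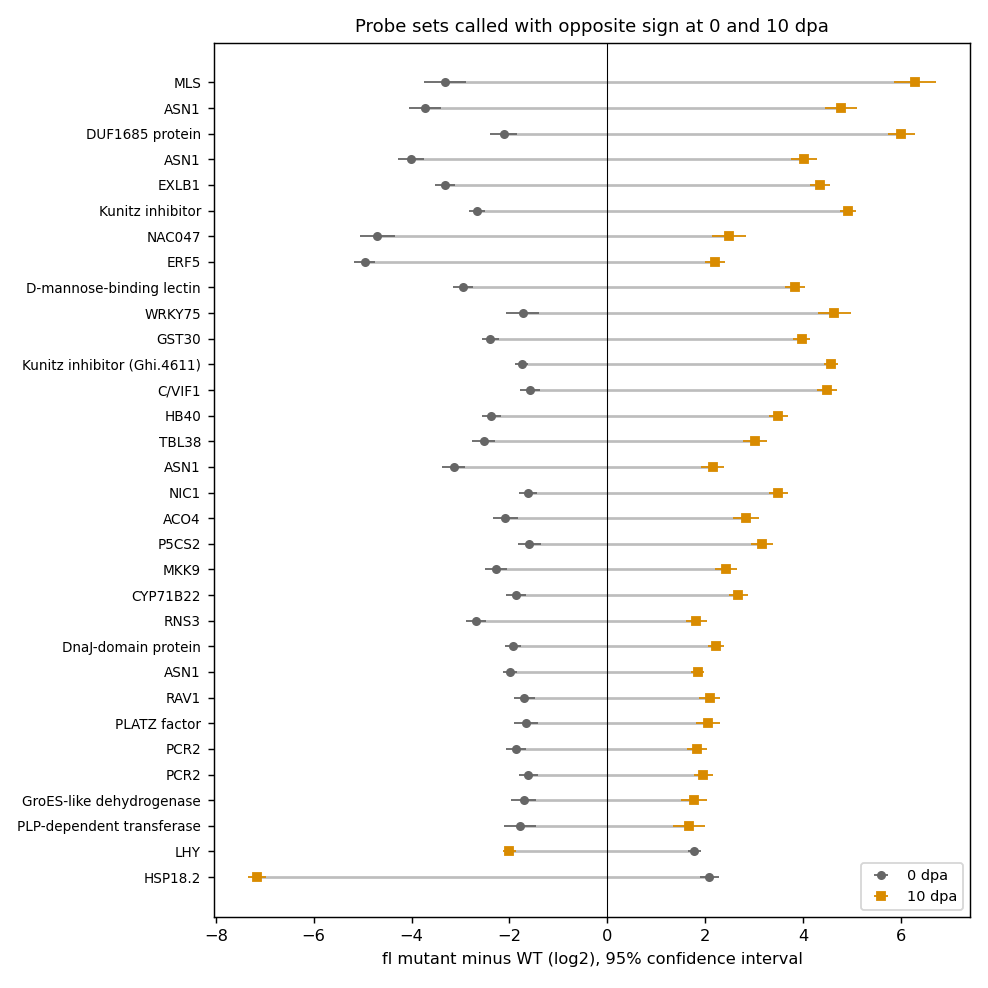
The plot shows 32 of the 33 probe sets called in opposite directions at 0 dpa (grey circles) and 10 dpa (orange squares), as fl mutant minus WT (log2) with 95% confidence intervals from limma, n = 3 arrays per group; ASN1 and PCR2 appear with several probe sets. All of those shown but LHY and HSP18.2 were lower at 0 dpa and higher at 10 dpa.

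The stress transcripts that the study chose from these arrays counted 7 upward and 12 downward of 23, and its qRT-PCR transcripts 4 and 16 of 28. Beside those above, the dehydration-responsive RDL moved by -3.88 and the RD22 probe sets by -2.76 and -2.74. The vesicle-sorting ATPase SKD1 was at -5.35, the iron transporter VIT at -4.48 and the aquaporin PIP2;2 at 2.00. The glutaredoxin GRX480 (-1.45), the sugar transporter STP1 (1.55), the proline transporter PROT2 (1.36) and the nitrate transporter NRT1.5 (0.80) were not called. On the poly-A and hybridisation scales STP1 (2.43 and 2.61), PROT2 (2.25 and 2.42) and NRT1.5 (1.69 and 1.86) were called upward. Among transcripts lower at both stages, RRTF1, a redox-responsive AP2 factor, was less far down at 10 dpa (-5.76 and -3.89, stage difference 1.87 ± 0.19). The AP2 factor that matches AT1G19210 (-5.92 and -6.62) and EXO, a brassinosteroid-induced protein (-4.46 and -5.77), had no called stage difference. CYP87A2 and the seed storage beta-globulin were called at neither stage, at -0.58 and -0.16.

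Of the 20 fibre and epidermis probe sets 2 were called upward and 9 downward. Lists for other ovule tissues and for dividing cells were called in both directions, with few calls for seed coat flavonoid and green tissue. Of 25 embryo storage and desiccation probe sets 10 were called upward and 6 downward, and the list's mean value was 0.31 to 0.35 in WT and -0.40 to -0.31 in the fl mutant at 0 dpa, and 0.10 to 0.19 against -0.27 to -0.18 at 10 dpa. Of 15 seed coat flavonoid probe sets 3 were upward and 1 downward, with chalcone synthase, the entry enzyme, at 3.37 for 1 probe set and -3.60 for another. Their mean was 0.20 to 0.21 in WT and -0.26 to -0.23 in the fl mutant at 0 dpa and 0.00 to 0.07 against -0.10 to -0.03 at 10 dpa. Of 10 green tissue probe sets 1 was upward (LHCB6, 2.08) and 1 downward (RBCS, -3.55), with group means between -0.26 and 0.15. Of 12 cell cycle and histone probe sets 6 were upward and 5 downward (6 and 3 on the control scales), from the D-type cyclin CYCD1;1 at 2.64 to a histone H3 at -3.18, which was the higher in the fl mutant at 0 dpa (1.77). Their part in the results above was not tested.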

How the data were processed

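Ovule RNA of G. hirsutum was hybridised to Affymetrix cotton arrays. The authors summarised the scans by RMA in GeneSpring and deposited log2 values, which, per probe set and stage, are centred at a median of 0 (6 arrays, within 5.00e-07). Whether RMA ran over all stages at once was not given in the sources used here, and the table holds no detection calls.

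The 12 arrays of 0 and 10 dpa were grouped by their labels and fitted in limma 3.58.1 (R 4.3.3) with a mean per group and moderated variances. The contrast was (fl mutant - WT at 10 dpa) - (fl mutant - WT at 0 dpa), adjusted by Benjamini-Hochberg over 24029 probe sets and called where adjusted p did not exceed 0.01 and the difference reached 3-fold, as in the study's methods. SE and confidence intervals are those of limma. The 103 Affymetrix controls were left out of the fit. Precision is limited by 3 arrays per group. The script was tested on simulated data.

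The rule for named transcripts was the 10 largest called stage differences in each direction with an Arabidopsis match, 1 per locus, the 5 largest reversals in each direction, up to 3 per list and direction, and all transcripts of the study's stress, qRT-PCR and fibre-fate sets. Members and lists were chosen with earlier results of these data known, and the lists' words were corrected after members had been seen by name. No comparison column of the study was used. A reversed probe set and a primer pair are not reported here.

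Alternatives were all 30 arrays, a replicate block, the methods' t-test, a robust prior, array weights, arrays centred on their median or 75th percentile, other thresholds, separate fits per stage and each array left out. Centring on the bacterial controls was added after seeing the data. Counts were made in Python 3.11.15 with pandas 2.3.3 and numpy 2.4.6.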

Additional observations from a re-analysis of the deposited data

Results flagged for a closer look

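The genotype effect was called in opposite directions at 0 and 10 dpa in 33 probe sets. Opposite calls at both stages fix a large stage difference by construction, so its size is a description here. The largest were MLS (stage difference 9.61), ASN1 (8.51), the DUF1685 protein (8.13), EXLB1 (7.66) and the Kunitz inhibitor (7.58) from lower to higher, and HSP18.2 (-9.24) and LHY (-3.78) from higher to lower.

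Signal also differed in probe sets outside the comparison. The poly-A controls lys, phe and thr had a median stage difference of -0.88 over 27 probe sets and the hybridisation controls bioB, bioC and bioD one of -1.16 over 21, all below 0, while the controls dap and cre were at -0.30 (9 probe sets) and -0.25 (6 probe sets). The cotton actin control was at -0.95 for its 3′ probe set, 0.29 for its 5′ and 0.43 for its middle one. Another cotton control, ss1, was at -0.98 for its 3′ probe set and -0.74 for its 5′ one. The part of these values in the results was not tested.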

How the results depend on the processing

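The stage difference gave 1625 upward and 1563 downward calls as reported. All 30 arrays in 1 fit, a robust prior, the methods' t-test, array weights, median or 75th percentile centring and adjusted p limits of 0.05 and 0.001 moved neither count by over 1.5-fold, and separate fits per stage moved no count at a single stage by as much. At least 2-fold in place of 3-fold gave 3285 and 2961, with 177 higher and 722 lower at 0 dpa, 2834 and 2640 at 10 dpa, and 131 and 39 probe sets called in opposite directions (lower first and higher first). Centring on the poly-A controls gave 4727 and 689, with 3460 higher and 875 lower at 10 dpa, 69 and 1 in opposite directions, and 276 list members downward. Centring on the hybridisation controls gave 5803 and 587, with 14 higher and 714 lower at 0 dpa, 2400 and 1042 at 10 dpa, 123 and 0 in opposite directions, and 248 list members downward. The cause was not tested. Leaving out each array in turn gave 1599 to 1639 upward and 1544 to 1598 downward calls, 36 to 39 and 329 to 337 at 0 dpa, 1155 to 1208 and 1559 to 1608 at 10 dpa, 29 to 32 and 2 to 3 in opposite directions, and 467 to 480 and 477 to 484 list members. The labels do not say what a replicate number shares. Deviations of same-numbered WT and fl mutant arrays correlated at r of -0.05, 0.01 and -0.01 at 0 dpa and -0.13, 0.16 and 0.13 at 10 dpa. With 3 arrays per group these values cannot show whether samples were paired. With the replicate number within each stage as a block 1625 and 1562 were called, 3187 of them shared. Of 157 named transcripts 13 crossed the threshold under some setting and none was reversed. Beside those described above they include CYCD3;1 (-1.13 and -0.96 on the control scales). Without fl mutant replicate 3 at 0 dpa the abscisic acid list counted 96 and 97, without WT replicate 1 at 10 dpa the cell cycle list 4 and 5, and at 2-fold the calcium list 14 and 15. With 3 arrays per group and no detection calls, dim transcripts could not be told from absent ones.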

Other observations

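Over the 2932 probe sets called at 0 or 10 dpa, the log2 genotype differences at the stages correlated at Pearson's r = 0.15 across probe sets, and over all 24029 at 0.12. Probe sets are not independent replicates, and the arrays of the stages differ, so this is a description only.

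Stage differences were also called for 493 upward and 267 downward probe sets that were called at neither single stage. The median genotype difference of the 493 was -0.60 at 0 dpa and 1.30 at 10 dpa, and that of the 267 was 0.54 and -1.29. Only 25 and 11 of these carry a name here.

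Of the 27 primer pairs read from the study's list 1, that for CESA7, has a reverse primer that is the exact reverse complement of its forward primer.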
